A study of Drosophila melanogaster with 4 samples.

Results

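Glutathione S-transferases (GSTs) are the enzymes described here, in Drosophila melanogaster embryos with and without ectopic expression of mir-3, a microRNA. The genes were chosen by a naming rule, with earlier results of these data known. The rule took every probe whose gene, looked up from the CG number on the array, had a symbol of the form GstD, GstE, GstO, GstS, GstT or GstZ followed by a number. This gave 35 genes of the 25098 distinct genes and transcripts on the array, 11 of class GstD (Delta), 14 of GstE (Epsilon), 3 of GstO (Omega), 1 of GstS (Sigma), 4 of GstT (Theta) and 2 of GstZ (Zeta). They lie on 4 chromosome arms, with the GstE class on 2R and the GstD class on 3R.

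The mir-3 ectopic group was homozygous for ectopic mir-3 expression, and the group set against it was wild type. Both had the w1118 genetic background, and both consisted of whole embryos aged 6 to 8 h after laying at 25 °C. The sources used here do not name the promoter or construct that drives mir-3. RNA was isolated separately from 3 biological replicates of each genotype and compared on 4 two-colour arrays, with mir-3 ectopic RNA in Cy3 on 3 of them and in Cy5 on a dye-swap array of replicate 1. No probe was named for mir-3 itself, so its level was not analysed here.

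A GST joins the tripeptide glutathione to reactive, often fat-soluble molecules, which makes them easier for the cell to handle and excrete. In insects the Delta and Epsilon classes have expanded into tandem gene clusters and are best known for breaking down insecticides, plant toxins and products of lipid peroxidation. The other classes are shared with vertebrates: Omega enzymes reduce or move thiol groups, Zeta enzymes take part in tyrosine breakdown, and the Sigma enzyme handles lipid peroxidation products. Several Delta genes are induced through CncC, the fly counterpart of the vertebrate stress regulator Nrf2, whose inhibitor is Keap1.

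GST genes were measured more often than the array as a whole. A gene was tested if 3 or more of the 4 arrays had a probe of it well above local background in the same genotype. This held for 30 of the 35 GST genes (85.7%) and for 14858 of the 25098 genes and transcripts (59.2%). The larger set also holds identifiers not matched to a reference gene, carried by 12625 of 32162 probes, so the shares are of unlike sets. On single arrays 28 to 31 GST genes were above background in mir-3 ectopic RNA and 30 or 31 in w1118 RNA. Over all spots the share above background was 57.6% to 64.7% for mir-3 ectopic RNA and 59.1% to 66.1% for w1118 RNA, and 0 spots were saturated. Ratios of all tested genes correlated between arrays at r = 0.941 to 0.945 where the dyes ran the same way and at 0.752 to 0.80 with the dye-swap array, across genes, which are not independent replicates. Of 12 marker genes of an embryo of this age, among them Mef2, twi, en and wg, all were above background.

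The 5 GST genes that could not be tested were 2 of the GstD and 3 of the GstE class. GstD8, GstE2, GstE4 and GstE10 were not well above background on any array in either genotype. GstD6 was above background on 2 arrays in mir-3 ectopic embryos and on 2 arrays in w1118 embryos. All 3 GstO genes, GstS1, all 4 GstT genes and both GstZ genes could be tested.

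Ratios are given as log2 of mir-3 ectopic over w1118, by the labelled dyes, so a positive value means higher in mir-3 ectopic embryos. This direction is opposite to that of the authors' deposited value table, and were the labelled dyes reversed every sign below would turn while the sizes stayed. Each replicate gives 1 ratio, the mean of both arrays for replicate 1, and limma tested the 3 ratios against 0 with Benjamini-Hochberg adjustment over all 14858 genes and a threshold of 0.05. A called gene is one that passed.

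The GST genes changed in both directions. Of the 30 tested, 10 rose and 12 fell in mir-3 ectopic embryos and 8 did not pass. The GST genes called in either direction were 73.3% of those tested, against 48.8% of all tested genes, of which 24.3% rose and 24.5% fell. Changes of at least 1 on the log2 scale, a 2-fold difference, were found in 6 of 30 GST genes (20.0%) and in 1.69% of all genes. Changes of at least 0.5 were found in 11 GST genes (36.7%) and in 8.14% of all genes. The family was chosen with earlier results of these data known, so these shares are descriptive, and the differences between them were not tested. The median ratio of the GST genes was -0.01, and that of all genes was 0.00 to 2 decimals. The median absolute ratio was 0.24 for GST genes and 0.14 for all genes. The sign was the same on all 4 arrays for 25 of the 30 GST genes, against 55.3% of all genes.

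**Figure D1:**
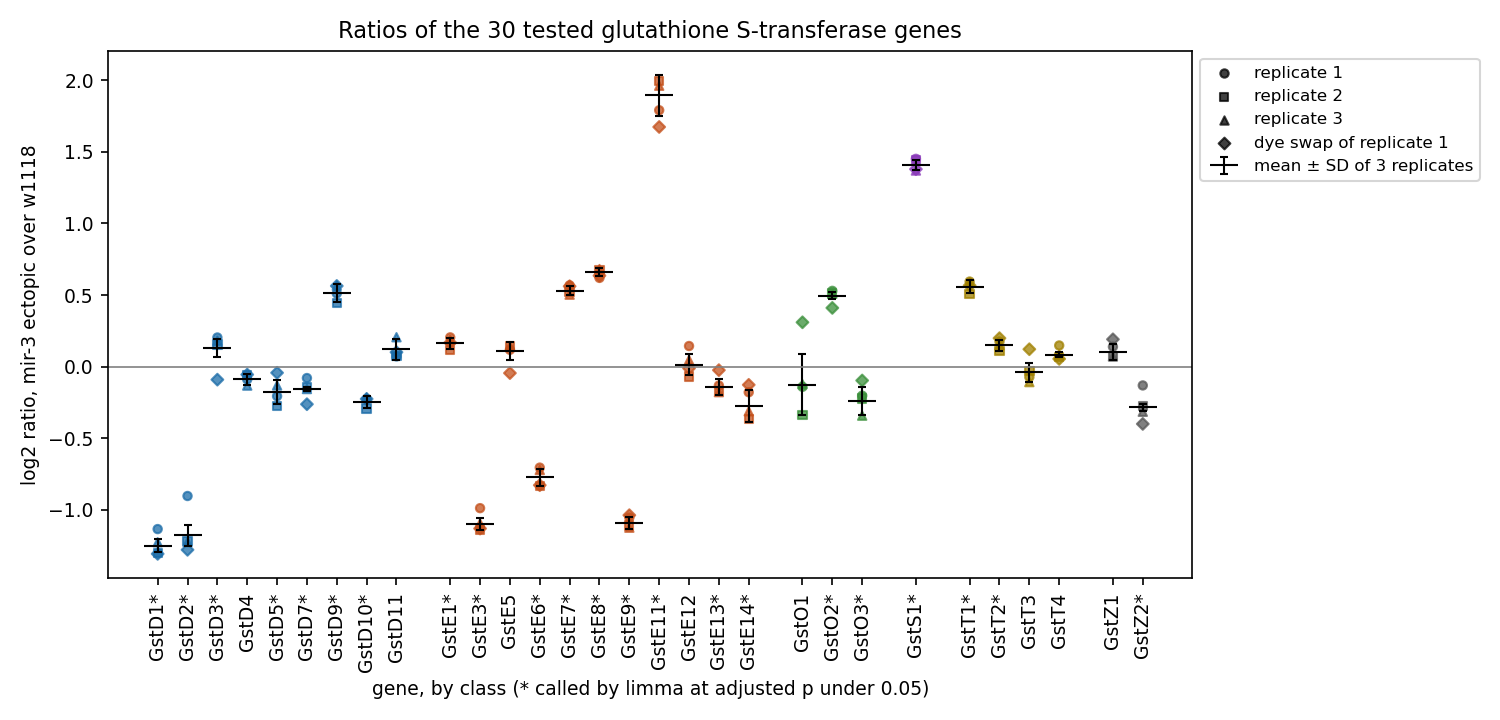
Log2 ratio of mir-3 ectopic over w1118 embryos (y axis) for the 30 tested GST genes by class (x axis). Coloured points are the 4 arrays, black dashes and bars the mean and SD of the 3 replicates, and asterisks mark the 22 called genes, which run from GstD1 at -1.25 to GstE11 at 1.90.

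The share of calls also differed with signal. In a split chosen after the values were seen, with all genes divided at the median signal over both genotypes, 13 of the 15 brighter GST genes were called, against 57.9% of the 7429 brighter genes on the array. Of the 15 dimmer GST genes 9 were called, against 39.6% of the 7429 dimmer genes. Of the 11 called GST genes with a ratio of at least 0.5 in size, 10 were among the brighter genes, where 8.79% of all genes reached that size. GstD2 was the 1 gene among them from the 15 dimmer GST genes, where 7.5% of all dimmer genes reached that size. This split depended on the processing. With the scanner software's processed signals the dimmer genes GstE14 (-1.52), GstZ2 (-1.12), GstO3 (-1.11) and GstD10 (-0.79) were also called beyond 0.5 in size. The share of all dimmer genes reaching that size was not counted in that setting.

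The Epsilon class held the most strongly raised GST gene. GstE11 (CG5224), which lies on 2R outside the tandem GstE cluster, had ratios of 1.79, 1.99 and 1.96 on the arrays of replicates 1, 2 and 3 and 1.67 on the dye swap. Its normalised log2 signal was 11.99 to 12.10 in the mir-3 ectopic channel and 10.03 to 10.32 in the w1118 channel, with no overlap between genotypes. The mean ratio was 1.90 ± 0.14 (SD, n = 3), or 3.72-fold higher, with SE 0.06 and a limma adjusted p of 1.2e-06.

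Within the GstE cluster, 2 neighbouring genes rose. GstE8 (CG17533) had ratios of 0.62, 0.67 and 0.68 in replicates 1 to 3 and 0.64 on the dye swap, a mean of 0.66 ± 0.03 (SD, n = 3, limma adjusted p 3.3e-05). GstE7 (CG17531) had 0.57, 0.52, 0.50 and 0.56 on the same arrays, a mean of 0.53 ± 0.03 (SD, n = 3, limma adjusted p 8.9e-05). Both were higher in mir-3 ectopic embryos on every array. GstE1 (CG5164), one of the Epsilon enzymes active on lipid peroxidation products, was higher by a smaller amount, 0.12 to 0.20 on the 4 arrays and 0.16 ± 0.04 on average (SD, n = 3, limma adjusted p 0.017), a call lost in 4 of 13 settings.

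The same cluster held 3 genes that fell. GstE3 (CG17524) had ratios of -0.99, -1.14 and -1.10 in replicates 1 to 3 and -1.13 on the dye swap, with a mean of -1.10 ± 0.04 (SD, n = 3, limma adjusted p 3.2e-06), or 2.14-fold lower. GstE9 (CG17534) had -1.05, -1.11, -1.12 and -1.04 on the same arrays, with a mean of -1.09 ± 0.04 (SD, n = 3, limma adjusted p 3.2e-06), or 2.13-fold lower. GstE6 (CG17530) had -0.70, -0.83, -0.72 and -0.83, with a mean of -0.77 ± 0.06 (SD, n = 3, limma adjusted p 2.1e-05). In each of the 3 genes every array was below 0. GstE5 (CG17527) had replicate ratios of 0.04, 0.14 and 0.14 and did not pass (0.11 ± 0.06, SD, n = 3).

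The remaining Epsilon genes lie elsewhere on 2R. GstE14 (CG4688), the noppera-bo enzyme of ecdysteroid synthesis, was lower, with replicate ratios of -0.15, -0.36 and -0.31 and a mean of -0.28 ± 0.11 (SD, n = 3, limma adjusted p 0.0047). The size of that decrease is uncertain: 1 of its 2 probes did not clear background for mir-3 ectopic RNA, and the ratio was -0.43 without background subtraction and -1.52 with the scanner software's processed signals. GstE13 (CG11784) was lower at -0.08, -0.17 and -0.18 in the 3 replicates (-0.14 ± 0.06, SD, n = 3, limma adjusted p 0.033), a call lost in 6 of 13 alternative settings, among them the fit with a dye term, at -0.09 (limma adjusted p 0.060). GstE12 (CG16936) had 0.07, -0.07 and 0.05 and did not pass. Over the 11 tested Epsilon genes 4 rose and 5 fell (81.8% called, against 48.8% of all genes). The class median of 0.01 lay beside a median absolute ratio of 0.53.

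**Figure D2:**
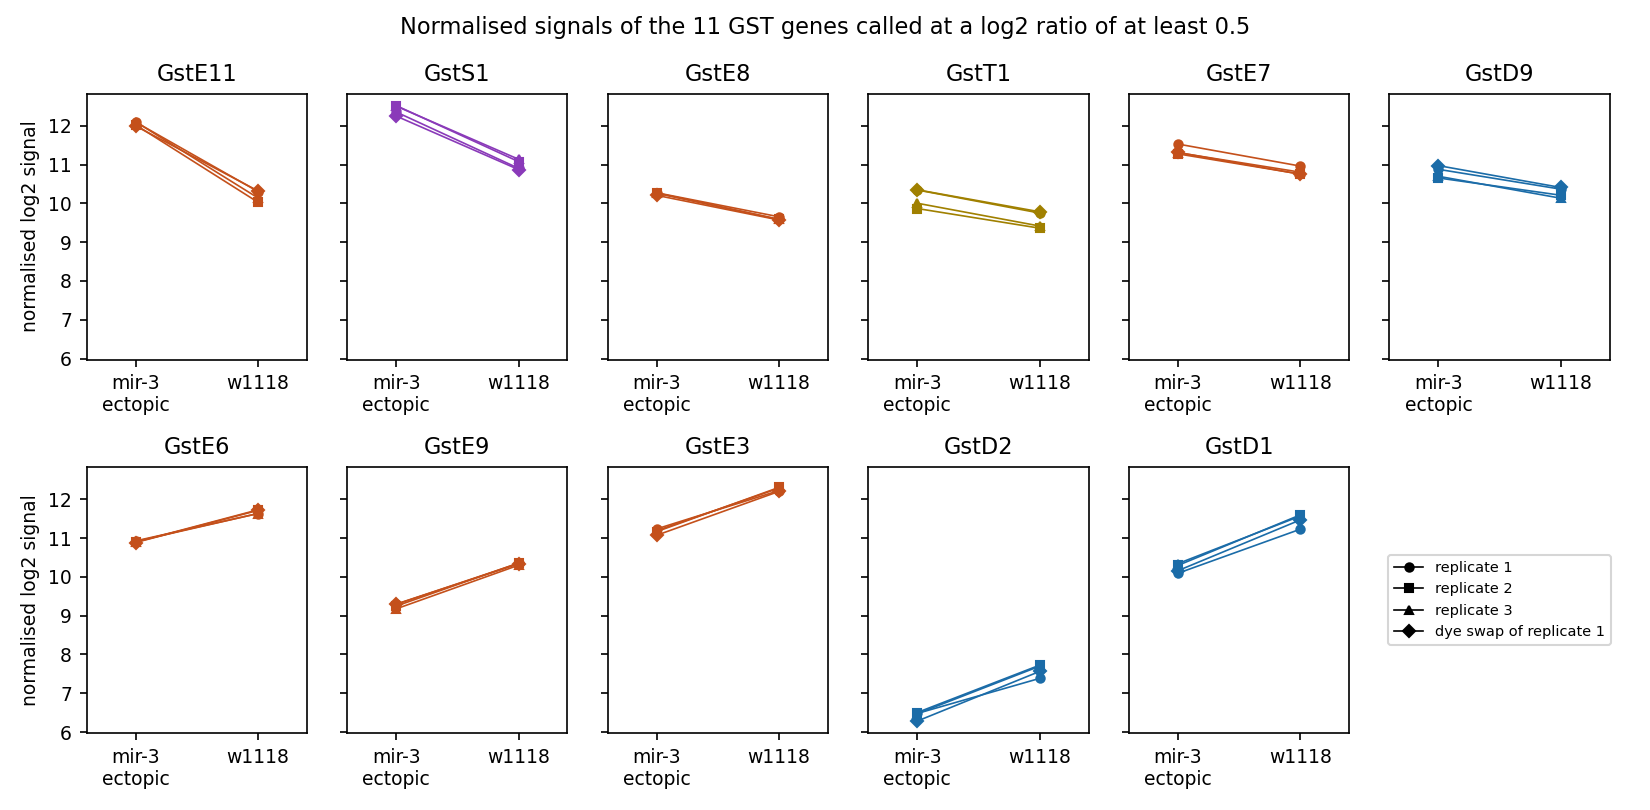
Normalised log2 signal (y axis) in the mir-3 ectopic channel (left) and the w1118 channel (right) of each array, for the 11 GST genes called with a log2 ratio of at least 0.5 in size. Lines join the channels of 1 array, and all 4 lines of a gene slope the same way; levels of different genes are from different probes and are not comparable.

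In the Delta class 5 of the 9 tested genes fell and 2 rose (77.8% called, against 48.8% of all genes). GstD1 (CG10045), a DDT-metabolising enzyme and a widely used reporter of CncC activity, had ratios of -1.13, -1.30 and -1.23 in replicates 1 to 3 and -1.31 on the dye swap. Its normalised log2 signal was 10.09 to 10.34 in mir-3 ectopic embryos and 11.23 to 11.59 in w1118 embryos, without overlap. The mean ratio was -1.25 ± 0.05 (SD, n = 3), or 2.38-fold lower, with SE 0.04 and a limma adjusted p of 1.9e-06.

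GstD2 (CG4181), the next gene in the cluster, also fell, with ratios of -0.90, -1.22 and -1.22 in replicates 1 to 3 and -1.28 on the dye swap. The mean was -1.18 ± 0.08 (SD, n = 3, limma adjusted p 3.6e-06), or 2.26-fold lower. Its signal was near background, which it did not clear for mir-3 ectopic RNA on the dye swap, at log2 signals of 6.28 to 6.51 in mir-3 ectopic embryos and 7.38 to 7.72 in w1118 embryos. Its ratio was -1.60 without background subtraction and -3.14 with the scanner software's processed signals, which replace both the background and the dye step, so the size of the decrease is uncertain.

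GstD9 (CG10091) rose, with ratios of 0.51, 0.45 and 0.56 in replicates 1 to 3 and 0.56 on the dye swap, a mean of 0.52 ± 0.06 (SD, n = 3, limma adjusted p 0.00014). All 4 arrays were above 0. The other Delta genes moved by less than 0.25. GstD10 (CG18548) was lower at -0.23, -0.29 and -0.22 in the 3 replicates, GstD5 (CG12242) at -0.12, -0.27 and -0.13, and GstD7 (CG4371) at -0.17, -0.14 and -0.16, the GstD5 and GstD7 calls each being lost in 4 of 13 settings.

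GstD3 (CG4381) passed as higher by a narrow margin, at replicate ratios of 0.06, 0.15 and 0.18 (limma adjusted p 0.049). Its dye-swap array was at -0.09, and the call was lost under 10 of 13 alternative settings. GstD4 (CG11512) had -0.07, -0.06 and -0.13 and GstD11 (CG17639) 0.09, 0.07 and 0.21, and neither passed. The median of the tested Delta genes was -0.16, with replicate medians of -0.12, -0.14 and -0.13. Probes of the Delta and Epsilon genes target paralogs that resemble each other, and cross-hybridisation between them was not tested.

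The single Sigma gene rose strongly. GstS1 (CG8938), abundant in adult flight muscle, had ratios of 1.45, 1.44 and 1.37 in replicates 1 to 3 and 1.38 on the dye swap. Its normalised log2 signal was 12.25 to 12.52 in mir-3 ectopic embryos and 10.87 to 11.14 in w1118 embryos. The mean ratio was 1.41 ± 0.04 (SD, n = 3), or 2.65-fold higher, with SE 0.04 and a limma adjusted p of 1.0e-06.

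Of the 4 Theta genes 2 rose and 2 did not pass (50% called, near the 48.8% of all genes). GstT1 (CG30000) had ratios of 0.59, 0.51 and 0.59 in replicates 1 to 3 and 0.57 on the dye swap, all above 0 (0.56 ± 0.04, SD, n = 3, limma adjusted p 7.9e-05). GstT2 (CG30005) was higher by 0.15 ± 0.04 (SD, n = 3, limma adjusted p 0.024), with replicate ratios of 0.19, 0.11 and 0.15, a call lost in 5 of 13 settings. GstT3 (CG1702), at 0.02, -0.03 and -0.11, and GstT4 (CG1681), at 0.10, 0.07 and 0.08, did not pass.

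The Omega genes differed among themselves. GstO2 (CG6673) rose, at 0.47, 0.51 and 0.51 in the 3 replicates, with a mean of 0.50 ± 0.02 (SD, n = 3, limma adjusted p 0.00011). GstO3 (CG6776) fell, at -0.15, -0.22 and -0.34 (-0.24 ± 0.10, SD, n = 3, limma adjusted p 0.0073), a call lost in 3 of 13 settings, and cleared background for mir-3 ectopic RNA on 3 of 4 arrays. GstO1 (CG6662) had the largest spread of the 30 genes, with replicate ratios of 0.08, -0.34 and -0.12 and a dye-swap ratio of 0.31, and did not pass.

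Of the Zeta genes, GstZ1 (CG9362) had replicate ratios of 0.16, 0.07 and 0.07 and did not pass (limma adjusted p 0.091). GstZ2 (CG9363) fell, at -0.27, -0.27 and -0.32 (-0.28 ± 0.03, SD, n = 3, limma adjusted p 0.0014), and also cleared background for mir-3 ectopic RNA on 3 of 4 arrays. With the processed signals other dim genes that fell also had ratios farther from 0, with no change of sign: GstZ2 -1.12, GstO3 -1.11, GstD10 -0.79 and GstD7 -0.29.

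In 8 genes more than 1 probe was kept, which shows how far a ratio depended on the probe. All 4 GstS1 probes rose: the 3 annotated to transcript RC had 1.47 ± 0.06, 1.51 ± 0.14 and 1.61 ± 0.05, and the 1 annotated to RB had 1.05 ± 0.16 (SD, n = 3 each). The 3 GstO2 probes also rose, from 0.37 ± 0.06 to 0.57 ± 0.04, and both GstE1 probes, at 0.16 and 0.17. No gene had probes called in opposite directions.

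Single probes passed and others of the same gene did not for GstD10 (-0.41 and -0.08), GstT2 (0.21 and 0.08), GstT4 (0.17 and -0.01) and GstZ1 (0.17 and 0.03). The dimmer GstE14 probe did not clear background for mir-3 ectopic RNA on any array, at a mean log2 signal of 6.19 in mir-3 ectopic embryos and 6.57 in w1118 embryos. Its ratio was -0.38 (limma adjusted p 0.0012). On each array the mir-3 ectopic signal of this probe was raised to the lowest signal well above background where it lay under it. The probe was then 1.29-fold lower in mir-3 ectopic embryos, a value that was not itself tested and is no strict bound. The brighter GstE14 probe alone gave -0.17 (limma adjusted p 0.040). Its dye-swap array was at 0.07 and its other arrays between -0.25 and -0.15.

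**Figure D3:**
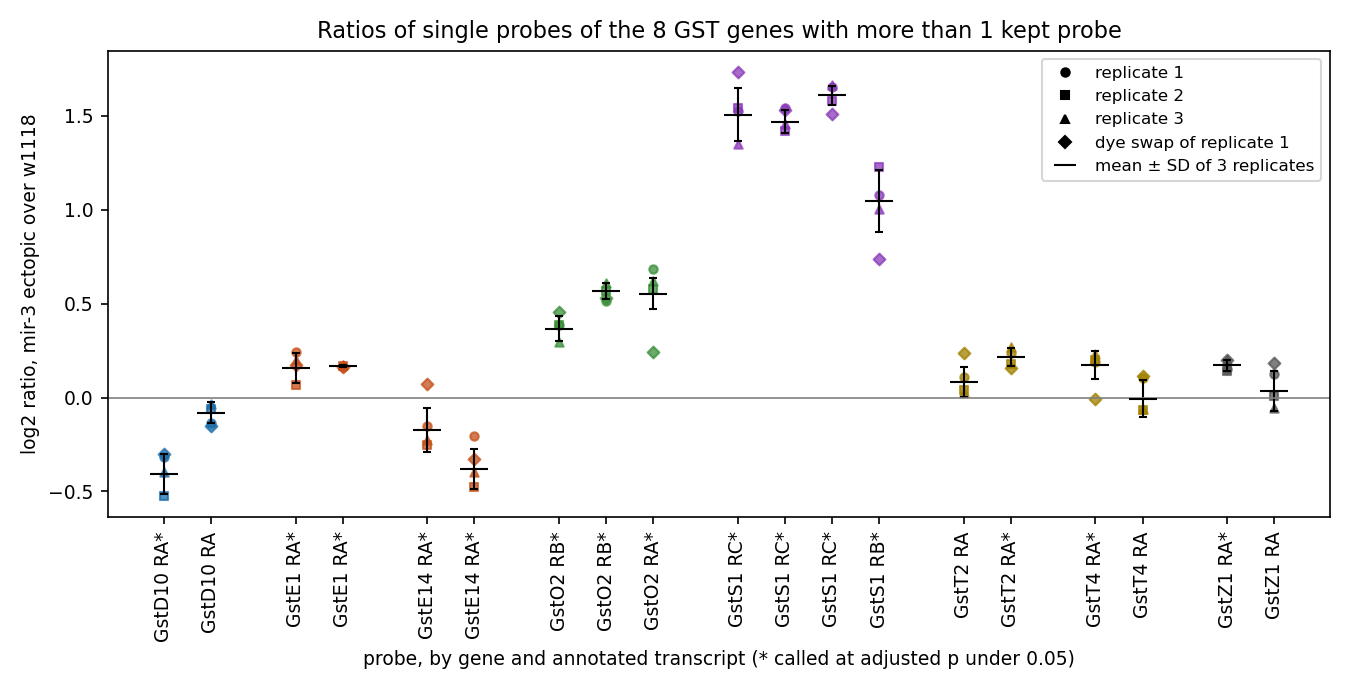
Log2 ratio of mir-3 ectopic over w1118 embryos (y axis) of each kept probe of the 8 GST genes with more than 1 (x axis, by gene and annotated transcript). Coloured points are the 4 arrays, black dashes and bars the mean and SD of the 3 replicates; the 4 GstS1 probes lie between 1.05 and 1.61.

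Neighbouring GST genes of the tandem clusters were called in the same and in opposite directions. In chromosomal order, the GstD cluster runs GstD10, GstD9, GstD1, GstD2, GstD3, GstD4, GstD5, GstD6, GstD7, GstD8 and GstD11, with CG10035 before the last, and the GstE cluster runs GstE10 and then GstE1 to GstE9. Along the GstD cluster 4 adjacent pairs had both genes called, and 3 of them were called in opposite directions: GstD10 and GstD9, GstD9 and GstD1, and GstD2 and GstD3, the last resting on the narrow GstD3 call. Along the GstE cluster 2 of 3 such pairs were opposite. In the 3-gene GstO cluster on 3L, GstO3 and GstO2 were opposite, but they are not adjacent genes. Between them lies se, a GST relative outside the naming rule, which was not tested. Over the array 44.9% of 2199 pairs of adjacent protein-coding genes with both called were called in opposite directions, and whether the GST pairs differ from that share was not tested.

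The widest steps between called neighbours had the same sign on every array. From GstD9 to GstD1 the ratio changed by -1.65, -1.75 and -1.79 in replicates 1 to 3 and by -1.87 on the dye swap. From GstE6 to GstE7 it changed by 1.27, 1.35, 1.22 and 1.39 on the same arrays, and from GstE8 to GstE9 by -1.67, -1.78, -1.81 and -1.67. Among pairs in which a gene did not pass, the step from GstD3 to GstD4 was -0.29, -0.21 and -0.31 in the replicates and 0.04 on the dye swap, and that from GstO2 to GstO1 -0.67, -0.85 and -0.63 in the replicates and -0.10 on the dye swap. GstE7 and GstE8 lay within 0.05 to 0.18 of each other, and GstD1 and GstD2 within 0.00 to 0.23.

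Some genes within and beside the clusters changed as well, on an array where 48.8% of all tested genes were called. CG10035 inside the GstD cluster fell by 0.72 on the log2 scale (SD 0.06, n = 3, limma adjusted p 3.1e-05). Before the GstD cluster, MBD-R2 was at -0.20 and CG4115 at -0.38, both called, and Tim17a1 was not tested. The MBD-R2 dye-swap array was at 0.0025 and its other arrays between -0.30 and -0.22. After it, CG10096 was at -0.03 and did not pass, and Sol1 and CG33098 were not tested. After the GstE cluster, imd, an adaptor of innate immune signalling, was at -0.23 and Dp1 at 0.25, both called, and CG5174 at 0.13 did not pass. The imd dye-swap array was at 0.05 and its other arrays between -0.39 and -0.15. The 3 genes before it, Idgf5, BomS6 and BomS5, were not tested. Of the 6 tested genes within and beside the GstO cluster that are not GST genes, 3 rose and 1 fell. Among those called higher, Pus7 was at -0.09 on the dye swap.

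**Figure D4:**
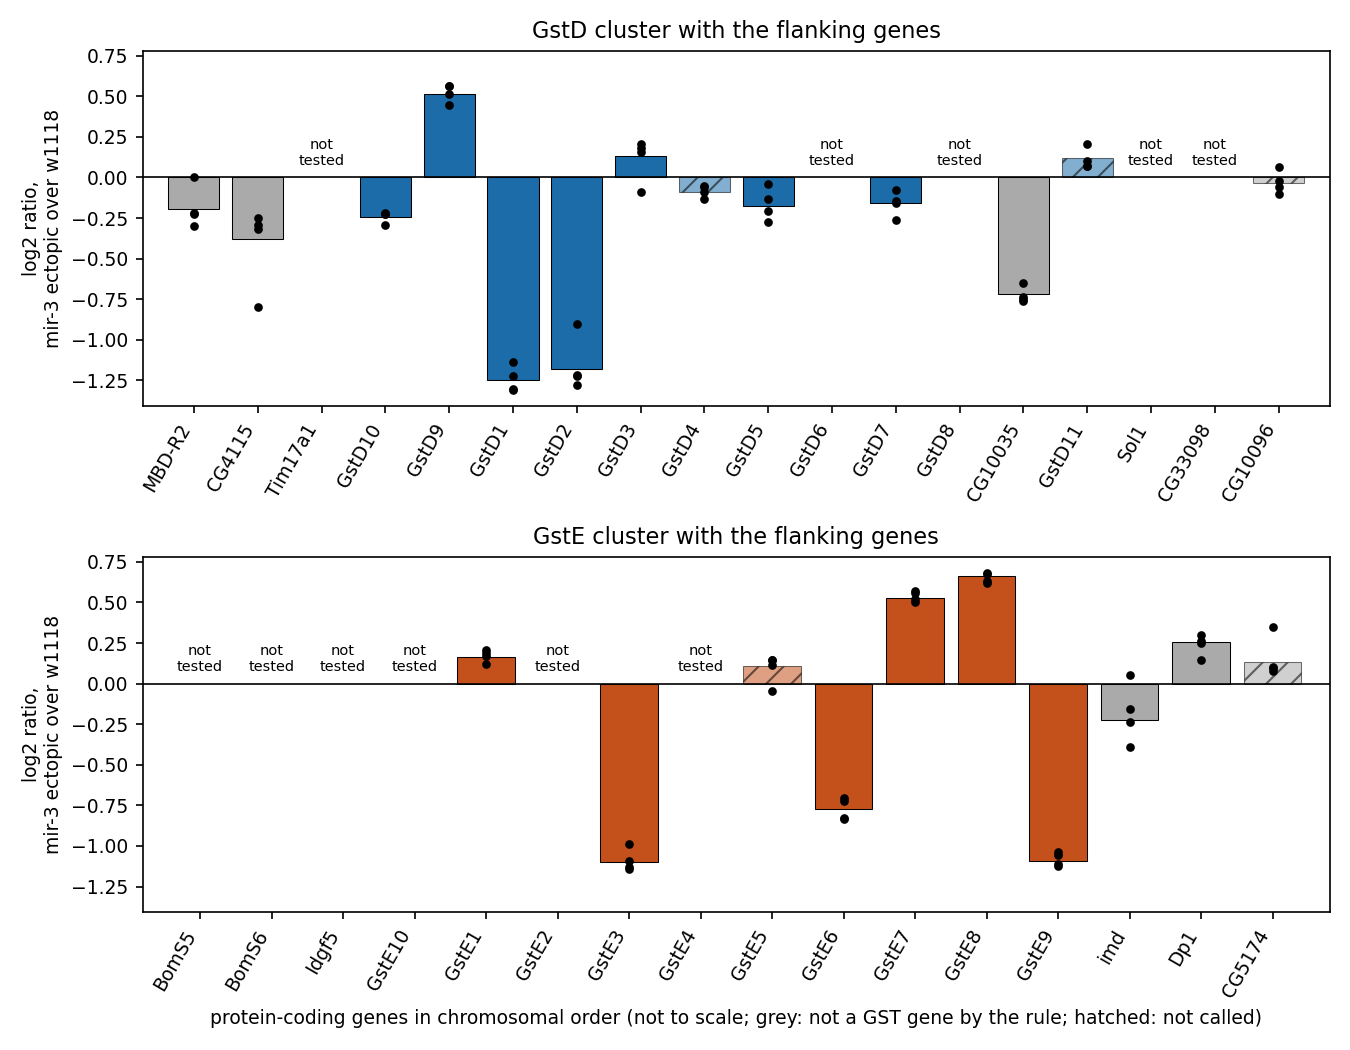
Mean log2 ratio of mir-3 ectopic over w1118 embryos (bars, y axis) with the 4 arrays (points) for the genes of the GstD (top) and GstE (bottom) clusters and 3 genes on each side, in chromosomal order (x axis). GST genes are coloured, other genes grey, and genes that did not pass are hatched; GstD1 at -1.25 stands beside GstD9 at 0.52, and GstE9 at -1.09 beside GstE8 at 0.66.

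Genes that act with GSTs were also mixed in direction. Among the tested relatives outside the naming rule 60% were called and among the CncC regulators 33.3%, against 48.8% of all tested genes. Of 5 tested relatives outside the naming rule, gfzf, a nuclear protein with a GST domain, rose (0.49), Mgstl, a microsomal GST, rose (0.30), Clic, a GST-fold chloride channel protein, fell (-0.30), and eEF1gamma (-0.13) and Gdap1 (-0.01) did not pass. Of the CncC regulators, the partner maf-S fell (-0.24, limma adjusted p 0.017), while cnc (-0.09, limma adjusted p 0.13) and Keap1 (0.10, limma adjusted p 0.15) did not pass. The maf-S dye-swap array was at 0.15 and its other arrays between -0.37 and -0.28.

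Of 20 tested genes of glutathione synthesis and thiol redox control 8 fell and 5 rose (65% called, against 48.8% of all genes). The median of the list was -0.03. The largest decrease was that of dhd, a maternal thioredoxin, at -3.26, and lower too were the peroxiredoxins Prx2 (-1.70) and Prx3 (-1.14) and the gamma-glutamyl transferase Ggt-1 (-1.09). The peroxiredoxin Prx6c rose by 1.16. The enzymes that make glutathione did not pass: Gclc, the catalytic subunit of the first step, was at 0.07, its modifier Gclm at -0.04 and the synthase Gss1 at -0.02.

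The other large detoxification families also held genes of both directions. Of 45 tested cytochrome P450 genes, which oxidise fat-soluble substrates, 14 rose and 13 fell (60% called, against 48.8% of all genes) with a median of 0.02, and none of those called reached 1 in size; those with the smallest p were Cyp6a22 (0.94), Cyp309a1 (0.84), Cyp309a2 (0.76) and Cyp6a20 (-0.79). Of 21 tested UDP-glycosyltransferase genes, whose products attach sugars, 8 rose and 6 fell (66.7% called) with a median of -0.02. Ugt49C1 (-1.27), Ugt35A1 (-0.96) and Ugt49B1 (-1.02) fell and Ugt50B3 rose (0.70).

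Markers of other cells and stages moved between the genotypes, and in whole embryos fewer cells of a type and less RNA per cell cannot be told apart. The share of all tested genes that were called, 48.8%, is the background for the counts below. All 11 tested late cuticle genes fell, with a median of -2.64, and the 12th, ple, was not above background. Cpr49Ah passed narrowly at -0.22 (limma adjusted p 0.04999), with its dye-swap array at 0.10. The summed log2 signal of the 11 genes was 10.07 to 10.27 in mir-3 ectopic embryos and 12.60 to 12.90 in w1118 embryos. Single probes cleared background in mir-3 ectopic RNA from log2 signals of 6.08 to 6.28 upward. How far that floor limited the size of these decreases was not tested. Of 10 maternal transcripts 8 fell and 2 rose (100% called, median -1.08), with summed signals of 13.76 to 13.88 in mir-3 ectopic and 14.25 to 14.30 in w1118 embryos.

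Of the 9 tested hemocyte genes 6 fell and 1 rose (77.8% called, median -0.20). Their summed log2 signals were 14.34 to 14.43 in mir-3 ectopic and 14.50 to 14.52 in w1118 embryos, and Hml, He and NimC1 were not above background. Of 4 tested fat body genes 3 fell (75% called, median -0.17, summed signals of 14.31 to 14.48 in mir-3 ectopic and 14.50 to 14.62 in w1118 embryos). Lsp1alpha, Lsp1beta, Fbp1 and Fbp2 were not above background, and svp, called lower, was at 0.06 on the dye swap. Of 9 gut genes 2 rose and 2 fell (44.4% called, median 0.09, summed signals of 13.92 to 13.94 in mir-3 ectopic and 13.80 to 13.95 in w1118 embryos). The gut gene lab, called lower, was at 0.14 on the dye swap. Of the 12 genes of an embryo of this age 1 rose and 2 fell (25% called, median -0.05, 15.10 to 15.13 in mir-3 ectopic and 15.18 to 15.23 in w1118 embryos). The part of these shifts in the GST ratios was not tested.

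The calls rested on the loess step that removes intensity-dependent dye bias within each array. With median centring in its place GstE11 alone stayed called among the GST genes (limma adjusted p 0.042), with 3 higher and 5 lower at an unadjusted p under 0.05, and the calls over all genes fell to 24 higher and 58 lower, the median SD between replicates being 0.40 with median centring and 0.07 with loess. The ratios of the 6 GST genes with changes of at least 1 stayed about as large there, at 1.87 for GstE11, 1.39 for GstS1, -1.28 for GstD1, -1.22 for GstD2, -1.11 for GstE3 and -1.14 for GstE9, and under the other 12 alternatives they also kept their calls.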

How the data were processed

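Per the file headers, the authors quantified the arrays with Agilent Feature Extraction 10.1.1.1, whose deposited output gives each spot's intensity as median signals of spot and background. They also hold log10 ratios from the scanner software, per the file headers, which were not used. The authors' value table of log2 ratios equalled log2 of processed Cy5 over Cy3, the dye swap's sign being turned.

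Background was corrected with normexp (offset 50) in limma 3.58.1 (R 4.3.3), and ratios were normalised within arrays by loess, in which controls had weight 0. Controls and flagged spots were then dropped and spots of a probe averaged; no GST spot was flagged. Of 32162 probes, 19734 were kept, among them 41 of the 46 GST probes. A probe with several spots counted as above background where at least 50% of them were. Kept probes were averaged per gene. Signals per genotype are channel values after loess and between-array Aquantile scaling. The plan named mean signals, but the files give median ones.

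Gene names and gene order came from a RefSeq table (Release 6), while the array was designed on an older build, so no coordinates are printed. A cluster was 3 or more GST genes with at most 5 other protein-coding genes between neighbours. Every GST gene is named, and of each related list the called genes with a ratio of at least 1 and the 4 with the smallest p. The genes and lists were chosen with earlier results of these data known. Same-numbered replicates share an array, so each ratio is paired; the 4 array files, 3 replicates and 1 dye swap, limit the precision. The fit was tested on simulated data with 50 changed genes at each size. It recovered 22% of changes of 0.25 on the log2 scale, 64% of 0.5, 94% of 1 and 100% of 2. Small changes could thus be missed. Alternatives were other background corrections, normalisations, filters, dye and slide terms, and leaving out each replicate.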

Additional observations from a re-analysis of the deposited data

Results flagged for a closer look

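In 5 of the 30 tested GST genes 1 of the 4 arrays stood far from the other 3, as it did in 9.07% of all 14856 genes with a value on 4 arrays. GstE5 was at -0.045 on the dye swap, against 0.12 to 0.14 on the other arrays. GstD3 was at -0.091 on the dye swap, against 0.15 to 0.20, and GstO2 was at 0.41 there, against 0.51 to 0.53. GstD2 was at -0.90 on the array of replicate 1, against -1.28 to -1.22 on the others. GstD10 was at -0.29 in replicate 2, against -0.23 to -0.22. Dye effects cancel in replicate 1 but not in replicates 2 and 3. In the fit of 4 arrays with the dye as a term GstD3 was at 0.04 and no longer passed (limma adjusted p 0.32), GstE5 was at 0.05 and did not pass either (limma adjusted p 0.31), and GstO2 (0.46), GstD10 (-0.24) and GstD2 (-1.20) kept their calls.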

How the results depend on the processing

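Of 10 higher and 12 lower GST genes, median centring in place of loess left 1 and 0 by limma (3 and 5 at an unadjusted p under 0.05). The other alternatives gave 7 to 13 higher and 8 to 13 lower, with 7 to 11 higher and 8 to 13 lower when replicates were left out. At least 15 of the 22 calls were kept with their sign under each of these; 15 were kept without replicate 3 and with the dye swap alone for replicate 1, and 16 without replicate 2. The 4 arrays fitted with the dye as a term kept 20, and the slide as a random block kept 21. The test of the 3 ratios is itself the paired analysis, since both genotypes of a replicate share an array.

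The GstD median of -0.16 moved to -0.19 without background subtraction, -0.29 with processed signals, -0.19 with median centring, -0.088 without the filter, -0.12 with the dye term and -0.13 without the dye swap; leaving out replicates gave -0.16 to -0.13. The GstE median ran from -0.03 to 0.07 and had no settled sign, with -0.011 to 0.056 when replicates were left out.

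Of 390 gene values 6 changed sign, none of them called in the main setting or in that one: GstE12 was at -0.026 with median centring, -0.011 with the dye swap alone and -0.011 to 0.056 with replicates left out, and with the dye term GstO1 was at 0.055 and GstT3 at 0.025. Requiring all 4 arrays above background kept 30 GST genes, and 1 array kept 31. Besides GstE11, whose adjusted p stayed under the threshold throughout (limma, 1.2e-08 to 0.042), every called GST gene lost its call under at least 1 alternative, and the causes were not tested.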
